A study of Mus musculus with 20 samples.

Results

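Dendritic cells that lack miR-155 were compared with wild-type dendritic cells by small RNA sequencing. The comparison holds 10 of the 20 libraries of the series: 5 knockout and 5 wild-type libraries, chosen by their labelled cell type and genotype and paired by their labelled state, which was immature (no stimulus), LPS, oxLDL, eLDL or LDL. Knockout cells came from mice of the strain B6.Cg-Mir155tm1.1Rsky/J, which carry a germline targeted Mir155 allele in every cell, and wild-type cells came from C57BL/6 mice. Both were bone marrow cultures from mice aged 8 to 12 weeks, grown into dendritic cells with GM-CSF from hybridoma supernatant, and LPS was given overnight at 200 ng/ml on day 8 to 9. The dose of the lipoproteins was not given in the sources used here, and the labels do not spell out the abbreviations oxLDL and eLDL. The other 10 libraries are macrophages grown with M-CSF, with the same genotypes and states.

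Each combination was sequenced once. The scatter behind every test is therefore the departure of the genotypes from parallel responses to the stimuli, and the labels do not say whether the libraries came from separate mice or cultures. All 20 libraries were fitted together for the miRNA tests, so the macrophage libraries also enter the spread behind the dendritic cell p-values. The p-values measure the spread between these libraries only. An effect of miR-155 loss cannot be told apart from another difference between the mouse stocks or between the cultures of the genotypes. Levels are given as CPM of miRNA reads (the read count of a miRNA divided by the miRNA reads of its library in M), where a miRNA read is a tag of 18 to 26 nt that matches an annotated mouse hairpin arm without mismatch. Knockout libraries held 10.3 to 17.1 M reads, of which 5.90 to 10.6 M were miRNA reads, and wild-type libraries held 10.6 to 13.9 M reads, of which 5.07 to 8.80 M were miRNA reads. A count of 3, the upper limit that a count of 0 allows, corresponds to 0.283 to 0.592 CPM in these libraries; this limit covers counting error only, since the tags carry no molecular identifiers. Of 1226 detected miRNA arms, 377 reached 5 CPM in at least 2 of the 20 libraries and were tested.

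miRNAs are RNAs of about the length of the tags counted here that guide Argonaute proteins to messenger RNAs, mainly through pairing of the seed, bases 2 to 8 from the 5′ end. miR-155 is processed from the noncoding transcript of the Mir155 host gene and is induced by Toll-like receptor ligands such as LPS in dendritic cells and macrophages. Its known targets include Socs1, an inhibitor of cytokine signalling, and Inpp5d, the phosphatase SHIP1. miR-146a and miR-146b, which share a seed, are known for dampening Toll-like receptor signalling through Traf6 and Irak1.

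The sequences below are those of miR-155, of the miRNAs with the firmest differences between the genotypes, and of relatives that share a seed with them. They are RefSeq mature sequences (GRCm38.p6), which were found for 55 of 63 miRNAs looked up, with the seed in capitals.
miR-155-5p: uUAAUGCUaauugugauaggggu
miR-155-3p: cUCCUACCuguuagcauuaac
miR-582-3p: uAACCUGUugaacaacugaac
miR-582-5p: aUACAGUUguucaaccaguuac
miR-139-5p: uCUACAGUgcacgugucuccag
miR-342-3p: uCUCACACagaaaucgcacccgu
miR-146b-5p: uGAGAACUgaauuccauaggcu
miR-146a-5p: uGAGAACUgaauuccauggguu
miR-181a-5p: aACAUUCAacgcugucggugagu
miR-181b-5p: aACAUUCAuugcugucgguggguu
miR-181c-5p: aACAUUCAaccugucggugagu
miR-181d-5p: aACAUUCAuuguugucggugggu
miR-200b-3p: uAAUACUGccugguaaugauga
miR-429-3p: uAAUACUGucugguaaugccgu
miR-200c-3p: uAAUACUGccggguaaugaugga
miR-148a-3p: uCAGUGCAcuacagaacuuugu

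The targeted miRNA was read first, as a check of the labels. In the order immature, LPS, oxLDL, eLDL and LDL, miR-155-5p stood at 0.479, 0.567, 0.790, 0.312 and 0.677 CPM in knockout dendritic cells, against 129, 9589.6, 447, 341 and 431 CPM in wild-type dendritic cells. Every knockout library lay far below every wild-type library, and the wild-type LPS library stood far above the rest. The knockout libraries together held 23 reads of miR-155-5p, against 93874 reads in the wild-type libraries. Relative to miRNA reads, the knockout level was 0.0222% of the wild-type level (exact Poisson 95% interval 0.014 to 0.0332%), and 0.167% (0.0975 to 0.268%) with the LPS pair left out. The level in knockout cells did not follow the wild-type level across the states: the knockout LPS library held 6 reads, and the other 4 held 2 to 7. All 23 reads were tags that begin at the RefSeq 5′ end, with lengths of 22, 23 and 24 nt (2, 10 and 11 reads). In wild-type libraries the same tags held 15.1%, 53.0% and 22.3% of the reads of the arm. The opposite arm, miR-155-3p, had 0 reads in the 5 knockout libraries and 461 reads in the wild-type libraries, of which 440 came from the LPS library. Against a floor of 3 counts over the group, it was at least 170-fold lower in knockout dendritic cells, and at least 7.52-fold lower without the LPS pair. The Mir155 hairpin lies at chr16:84714140-84714204 (GRCm38, plus strand) in an exon of the host transcript Mir155hg.

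Beyond miR-155, most of the tested miRNAs were not called different between the genotypes, which does not show that they were equal. With edgeR's quasi-likelihood test and Benjamini-Hochberg adjustment at 0.05, 32 of the 377 tested miRNAs (8.49%) were called different, 20 higher (5.31%) and 12 lower (3.18%) in knockout cells, the lower ones including both arms of miR-155. The median change over all tested miRNAs was 0.05 on the log2 scale. Only 11 of the 32 changed by more than 2-fold, and the median absolute log2 change of the called miRNAs was 0.71. The 5 knockout libraries all lay above the 5 wild-type libraries for 10 miRNAs (2.65%) and all below them for 9 (2.39%). The split of the calls depended on the scaling: with total miRNA reads as the library size, 11 were called higher and 21 lower. Leaving out the oxLDL pair gave 16 calls and leaving out the eLDL pair 18, and 13 of the 32 were called without any 1 of the pairs. In bulk RNA, a smaller number of cells of a type and less RNA per cell cannot be told apart.

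**Figure D1:**
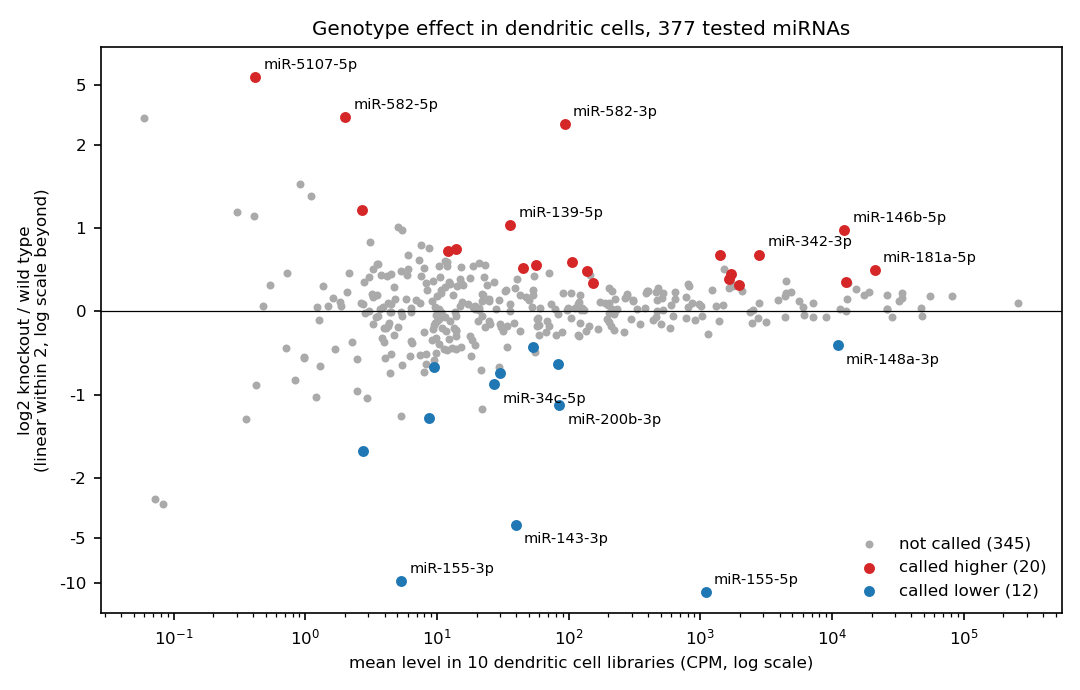
Each point is 1 of the 377 tested miRNAs, with its mean level over the 10 dendritic cell libraries on a log axis and the fitted log2 ratio of knockout to wild type on an axis that is linear within 2 and logarithmic beyond. Red points were called higher and blue points lower in knockout cells (edgeR, adjusted p under 0.05); the fitted ratios of miR-155 and of the miRNAs below 1 CPM rest on very few reads and are not measures of size. miR-582-3p stands apart among the miRNAs above 10 CPM that were higher in the knockout.

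The 10 most abundant miRNAs were among those not called. miR-21a-5p, a miRNA abundant in many activated immune cells, took 25.8% of miRNA reads in knockout and 26.2% in wild-type dendritic cells on average, with a log2 change of 0.10 ± 0.12 (SE, adjusted p = 0.699). let-7f-5p took 8.23% of the reads in knockout and 8.07% in wild-type cells, and miR-10a-5p took 4.61% in knockout and 4.90% in wild-type cells. The absolute log2 changes of the 10 miRNAs were at most 0.23.

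The largest increase among miRNAs above 10 CPM was that of miR-582-3p. Its hairpin lies at chr13:109324744-109324824 (plus strand) in an intron of Pde4d, which encodes a phosphodiesterase that breaks down cyclic AMP. In the order immature, LPS, oxLDL, eLDL and LDL, it stood at 233, 61.8, 166, 189 and 154.96 CPM in knockout dendritic cells, against 32.0, 10.7, 26.3, 28.0 and 28.8 CPM in wild-type dendritic cells. Even the lowest knockout library, that with LPS, lay above the highest wild-type library. The log2 change was 2.76 ± 0.13 (SE, edgeR, adjusted p = 1.99e-10), higher in 5 of 5 pairs, which the rule for named miRNAs required. The change ran from 2.70 to 2.81 when each pair was left out. In both genotypes the LPS library had the lowest level. The opposite arm, miR-582-5p, was near the floor of detection, at 0.567 to 7.55 CPM in knockout and 0 to 1.89 CPM in wild-type cells, and was called in the same direction (log2 change 3.06 ± 0.52, adjusted p = 0.00118). The mean level of this arm in knockout cells was 3.48 CPM, against 0.531 CPM in wild-type cells.

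The most frequent miR-582-3p tag in these libraries begins 1 nt after the RefSeq start, so that its seed is shifted by that base. Written with U and with its own seed in capitals, it is as follows.
miR-582-3p, most frequent tag: aACCUGUUgaacaacugaaccc
Reads with the later start made up 52.2 to 62.2% of the miR-582-3p reads in knockout libraries and 60.6 to 74.6% in wild-type libraries, so the ranges overlapped. Summed over the libraries, knockout cells had 3738 reads with the later start and 2313 with the RefSeq start, and wild-type cells had 612 with the later and 255 with the RefSeq start. Both forms were more frequent in the knockout. The share of the later start was not tested.

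miR-146b-5p rose in knockout dendritic cells, whereas the call did not extend to miR-146a-5p, which has the same seed, GAGAACU. In the order immature, LPS, oxLDL, eLDL and LDL, miR-146b-5p stood at 14883, 20785, 12147, 17442 and 14236 CPM in knockout cells, against 9524, 10915, 6745, 8317 and 8159.8 CPM in wild-type cells. The groups did not overlap, and in each genotype the LPS library was the highest. On average it was 1.82-fold higher in the knockout, with a log2 change of 0.98 ± 0.09 (SE, adjusted p = 2.41e-06). miR-146a-5p averaged 11066 ± 949 CPM in knockout and 11753 ± 1077 CPM in wild-type cells (SD, n = 5 each), with overlapping ranges and a log2 change of 0.03 ± 0.12 (adjusted p = 0.944). The sparse opposite arm miR-146b-3p was also called, at 3.72 ± 1.73 CPM in knockout and 1.70 ± 1.01 CPM in wild-type cells (SD, n = 5 each; log2 change 1.22 ± 0.34, adjusted p = 0.0368), but not without the oxLDL or the eLDL pair, where its log2 change was at least 0.89. Mir146b lies at chr19:46342762-46342870 (plus strand) in an intron of Mfsd13a. The most frequent miR-146b-5p tag was a 24-nt form 2 bases longer than the RefSeq sequence.
miR-146b-5p, most frequent tag: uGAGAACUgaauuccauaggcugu
This tag held 73.1% of the reads of the arm in knockout and 73.2% in wild-type libraries.

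miR-139-5p and both arms of miR-342 also rose. miR-139-5p, from an intron of Pde2a, another cyclic nucleotide phosphodiesterase gene (chr7:101475376-101475443, plus strand), stood at 54.9, 38.9, 43.4, 48.8 and 50.5 CPM in knockout cells, against 21.6, 25.8, 25.99, 26.6 and 24.2 CPM in wild-type cells, in the same order of states. The groups did not overlap, and the gap was narrowest with LPS. Its log2 change was 1.04 ± 0.14 (adjusted p = 9.52e-05). The opposite arm, miR-139-3p, had a log2 change of 0.76 ± 0.28 and was not called (adjusted p = 0.112). miR-342-3p, from an intron of the actin regulator gene Evl (chr12:108658620-108658718, plus strand), stood at 3104, 3086, 3378, 3542 and 3508 CPM in knockout cells, against 2661, 1931, 2029, 2472 and 2188 CPM in wild-type cells. Again the groups did not overlap, and knockout levels were 1.47-fold higher on average (log2 change 0.68 ± 0.08, adjusted p = 2.94e-05). miR-342-5p overlapped between the groups, with 121 ± 22.2 CPM in knockout and 89.6 ± 29.7 CPM in wild-type cells (SD, n = 5 each). Its call (log2 change 0.59 ± 0.17, adjusted p = 0.0427) was lost when any 1 of the 5 pairs was left out, where the change ran from 0.41 to 0.68, and with total miRNA reads as the library size.

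**Figure D2:**
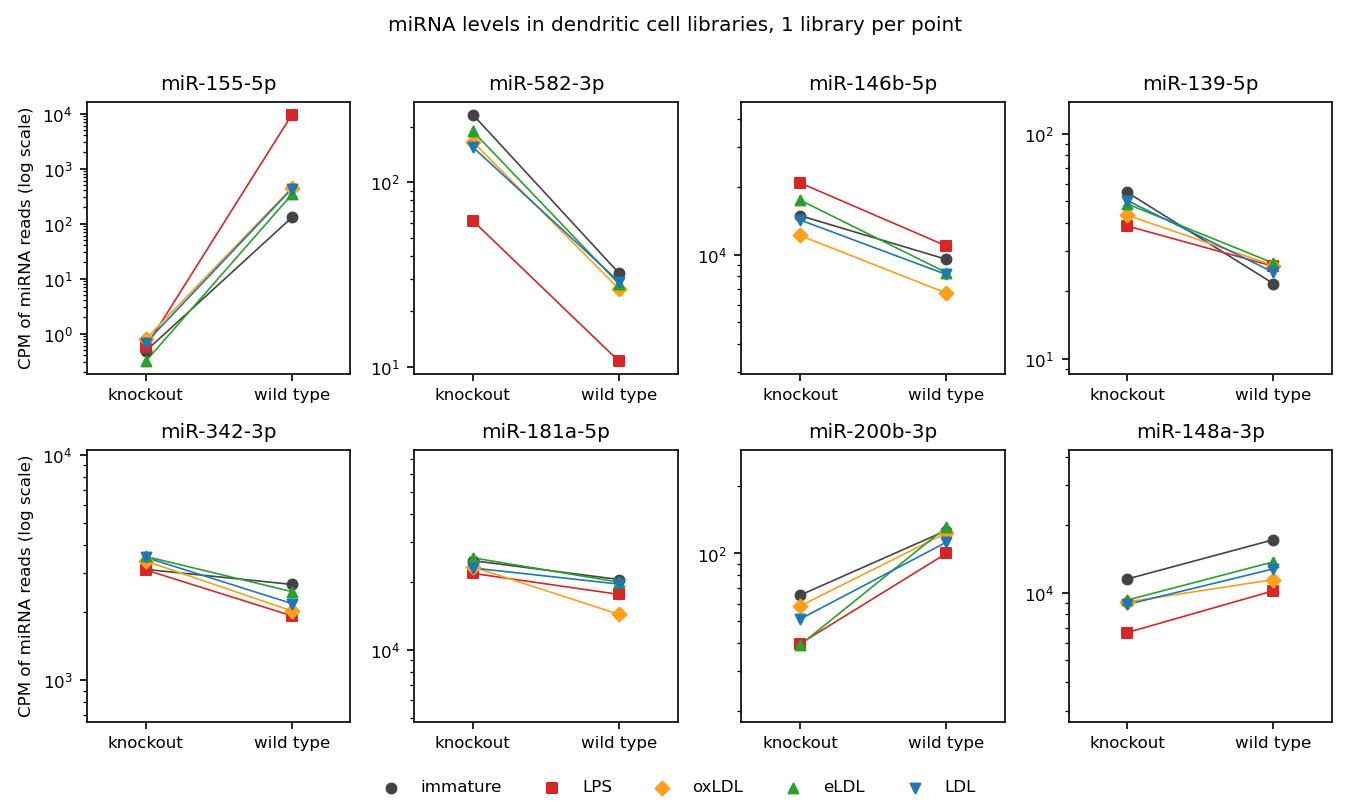
Levels of 8 miRNAs in CPM of miRNA reads on log axes, with knockout libraries on the left and wild-type libraries on the right of each panel, 1 point per library and a line joining the libraries of the same stimulus. miR-155-5p, miR-200b-3p and miR-148a-3p fell and miR-582-3p, miR-146b-5p, miR-139-5p, miR-342-3p and miR-181a-5p rose in each of the 5 pairs, which the rule for named miRNAs required. Of these, miR-148a-3p overlapped between the genotypes, with 6648 to 11482 CPM in knockout and 10189 to 17159 CPM in wild-type libraries.

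The miR-181 family, whose members are known from lymphocyte development and the tuning of T cell receptor signalling, had 8 tested arms, of which 3 rose, 2 fell and 3 were not called, against 5.31% called higher and 3.18% called lower over all tested miRNAs. The main product, miR-181a-5p, stood at 24869.6, 21835, 23334, 25595 and 23072 CPM in knockout cells, against 20502, 17610.2, 14355, 19957 and 19569 CPM in wild-type cells, in the order immature, LPS, oxLDL, eLDL and LDL. The groups did not overlap (log2 change 0.49 ± 0.08, adjusted p = 0.00118). miR-181b-5p and miR-181c-5p, which share the seed ACAUUCA, were higher by 0.32 ± 0.09 (adjusted p = 0.034) and 0.52 ± 0.15 (adjusted p = 0.0368) on the log2 scale. Their groups overlapped: miR-181c-5p had 51.3 ± 10.0 CPM in knockout and 39.3 ± 12.0 CPM in wild-type cells (SD, n = 5 each). miR-181d-5p, with the same seed, was not called (0.20 ± 0.14, adjusted p = 0.431). The call of miR-181b-5p was lost without the oxLDL, eLDL or LDL pair and that of miR-181c-5p without the LPS, oxLDL or eLDL pair, and both were lost with total miRNA reads as the library size.

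Some opposite arms of the same hairpins were lower in the knockout. miR-181a-2-3p, from the Mir181a-2 hairpin (chr2:38852735-38852810, plus strand), stood at 88.7, 50.7, 65.1, 46.3 and 55.9 CPM in knockout cells, against 136, 66.1, 95.2, 125 and 96.7 CPM in wild-type cells. It was lower in 5 of 5 pairs, as the rule for named miRNAs required, and the groups overlapped (log2 change -0.64 ± 0.17, edgeR, adjusted p = 0.034). Of the 5 fits that left out a pair, only the fit without the LPS pair kept the call (-0.76). The changes without the other pairs came down to -0.50 (without eLDL). miR-181c-3p had 4.07, 0.189, 0.451, 1.25 and 0.847 CPM in knockout cells, against 4.49, 3.52, 2.34, 4.54 and 5.74 CPM in wild-type cells, with a log2 change of -1.67 ± 0.45 (adjusted p = 0.0376). This call was kept without the immature pair (-2.53) and lost without any of the others (-1.35 without LPS). The 3p arms did not share a direction: miR-181a-1-3p, from the other miR-181a hairpin on chromosome 1, had a log2 change of 0.25 ± 0.09 (adjusted p = 0.119) and the rare miR-181b-1-3p, at a mean of 3.11 CPM, one of 0.83 ± 0.40 (adjusted p = 0.231), neither of them called. A difference between 5p and 3p arms was not tested. The reads of miR-181a-5p cannot be divided between its hairpins, because both give the same sequence.

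Further increases were smaller. let-7d-3p averaged 1665 ± 272 CPM in knockout and 1175 ± 421 CPM in wild-type cells (SD, n = 5 each; log2 change 0.68 ± 0.17, adjusted p = 0.027), while its main arm let-7d-5p was not called (0.12 ± 0.13, adjusted p = 0.668). Both arms of miR-30a were called higher, miR-30a-3p by 0.49 ± 0.10 (edgeR, adjusted p = 0.0072) and miR-30a-5p by 0.45 ± 0.12 (adjusted p = 0.027), with overlapping groups. miR-30a-5p was higher in 4 of 5 pairs, with a log2 ratio of -0.02 in the LPS pair. miR-132-3p, a miRNA induced by the transcription factor CREB in neurons, stood at 65.0 ± 8.74 CPM in knockout and 47.8 ± 7.34 CPM in wild-type cells, without overlap (SD, n = 5 each; 0.56 ± 0.14, adjusted p = 0.0212). Its neighbour miR-212-3p, which shares the seed AACAGUC, was not called (0.53 ± 0.28, adjusted p = 0.273). miR-26a-5p (0.36 ± 0.08), miR-486-5p (0.39 ± 0.09) and miR-185-5p (0.34 ± 0.09) were higher by less, and miR-677-5p (0.75 ± 0.19) and miR-149-5p (0.73 ± 0.18) were higher at mean levels of 14.0 and 12.2 CPM.

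These smaller calls were sensitive to single pairs. That of let-7d-3p was lost without the immature, LPS or eLDL pair (log2 changes from 0.55), that of miR-132-3p without the LPS, oxLDL or eLDL pair (from 0.45), that of miR-30a-3p without the oxLDL pair (0.45) and that of miR-30a-5p without the immature, oxLDL or eLDL pair (from 0.29). miR-26a-5p was no longer called without the oxLDL or eLDL pair (from 0.24), miR-486-5p without the oxLDL pair (0.29) and miR-149-5p without the oxLDL or LDL pair (from 0.59). Among these fits, miR-677-5p kept its call only without the LPS pair (0.86), and miR-185-5p lost it whichever pair was left out (0.27 to 0.37). With total miRNA reads as the library size, miR-132-3p, miR-26a-5p, miR-486-5p, miR-185-5p and miR-30a-5p were not called.

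Among the decreases, miR-200b-3p was the firmest after miR-155. The miR-200 family restrains the transcription factors Zeb1 and Zeb2 and is best known from epithelial cells. In the order immature, LPS, oxLDL, eLDL and LDL, miR-200b-3p stood at 65.3, 39.8, 58.5, 39.3 and 51.1 CPM in knockout cells, against 126, 100.1, 123, 131 and 112 CPM in wild-type cells. The groups lay well apart (log2 change -1.13 ± 0.12, adjusted p = 1.11e-05), and the change ran from -1.22 to -1.04 as each pair was left out. The hairpin lies at chr4:156055681-156055750 (minus strand) in an intron of Ttll10. Its neighbour miR-429-3p, which shares the seed AAUACUG, had 15.4 ± 1.74 CPM in knockout and 28.0 ± 8.48 CPM in wild-type cells (SD, n = 5 each), again without overlap, but missed the threshold (-0.70 ± 0.22, adjusted p = 0.0674). miR-200a-3p of the same cluster had overlapping groups (-0.18 ± 0.12, adjusted p = 0.395), and miR-200c-3p, which has the same seed but lies on another chromosome, was not called (0.31 ± 0.15, adjusted p = 0.238).

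miR-148a-3p was the most abundant miRNA called lower. Its known targets include the cholesterol exporter Abca1 in liver. It stood at 11482, 6648, 9088, 9260.1 and 8857 CPM in knockout cells, against 17159, 10189, 11409.8, 13687 and 12740.5 CPM in wild-type cells, in the same order of states. In both genotypes the immature library was the highest and the LPS library the lowest. Knockout was lower in 5 of 5 pairs, as the rule for named miRNAs required (log2 change -0.41 ± 0.09, edgeR, adjusted p = 0.012). The opposite arm miR-148a-5p had a log2 change of -0.49 ± 0.16 and missed the threshold (adjusted p = 0.0815). miR-148b-3p (-0.14 ± 0.09) and miR-152-3p (-0.10 ± 0.11), which share the seed CAGUGCA, were not called (adjusted p = 0.391 and 0.636).

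miR-34c-5p, miR-1983 and miR-1943-5p also fell, and for each the knockout libraries lay below every wild-type library. miR-34c-5p, a miRNA induced by p53 and common in ciliated epithelia, had 18.3 ± 4.32 CPM in knockout and 35.9 ± 5.81 CPM in wild-type cells (SD, n = 5 each; -0.87 ± 0.20, adjusted p = 0.0117). Without the LDL pair its change was -0.75 and no longer called (adjusted p = 0.052). miR-1983 had 21.2 ± 3.28 CPM in knockout and 38.7 ± 8.79 CPM in wild-type cells (SD, n = 5 each; -0.73 ± 0.15, adjusted p = 0.0072). miR-1943-5p had 43.3 ± 3.06 CPM in knockout and 63.5 ± 8.78 CPM in wild-type cells (SD, n = 5 each; -0.43 ± 0.13, adjusted p = 0.0427), and of the fits that left out a pair only that without LPS kept the call (-0.48).

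Among the miRNAs with a mean above 10 CPM, miR-143-3p had the largest fold difference after miR-155. It is a miRNA of smooth muscle and other mesenchymal cells. Its levels were 3.83, 5.76, 4.63, 3.27 and 1.86 CPM in knockout cells, against 81.3, 151, 52.6, 48.5 and 43.2 CPM in wild-type cells. The groups lay far apart, but the fitted spread was wide (log2 change -4.10 ± 0.91, adjusted p = 0.027), and the call was lost without the immature, oxLDL, eLDL or LDL pair, with changes from -4.33 to -3.97 over the 5 pairs. The 12 listed markers of stromal and mesenchymal cells were read beside it. Of these, 9 were detected and 4 tested, 1 was called lower (miR-143-3p itself, against 3.18% called lower over all tested miRNAs) and 3 were not called. Their summed level was 386 to 576 CPM in knockout and 524 to 740.1 CPM in wild-type libraries. These sums include miR-143-3p itself, and their largest part is miR-152-3p (mean 434 CPM, log2 change -0.10 ± 0.11, not called). The 4 tested members all had negative log2 changes. miR-143-5p, miR-199b-5p and miR-214-5p were at 0 in each of the 10 libraries. miR-100-5p of this list had 12.6 ± 3.64 CPM in knockout and 31.6 ± 11.5 CPM in wild-type cells (SD, n = 5 each), without overlap, and was not called (-1.17 ± 0.42, adjusted p = 0.113), and miR-199a-3p overlapped between the genotypes (-0.23 ± 0.45, adjusted p = 0.828). The part of other cells in the low miR-143-3p of the knockout was not tested.

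The same reading was made for the other marker lists. Of the 10 epithelial markers, 10 were detected in the series and 7 tested; 2 were called lower (miR-200b-3p and miR-34c-5p, against 3.18% of all tested miRNAs) and 5 were not called, their summed level was 183 to 203 CPM in knockout and 270.3 to 329 CPM in wild-type libraries, and miR-205-5p was at 0 in the dendritic cells. These sums include miR-200b-3p itself. The tested epithelial markers did not share a direction, with 4 negative and 3 positive log2 changes. The positive ones were miR-141-3p (0.58 ± 0.21, SE), miR-203-3p (0.34 ± 0.29) and miR-200c-3p (0.31 ± 0.15). The part of epithelial cells in the lower miR-200b-3p was not tested. The haematopoietic markers miR-142a, miR-223 and miR-150 gave 5 tested arms, none called in either direction, with a summed level of 20352 to 26441 CPM in knockout and 17189 to 25285 CPM in wild-type libraries. The erythroid marker miR-451a had a mean level of 1.87 CPM and was not called. miR-486, also an erythroid marker, was counted as miR-486-5p, at a mean of 1645 CPM. It was called higher in the knockout (log2 change 0.39 ± 0.09, edgeR, adjusted p = 0.012), though not without the oxLDL pair or with total miRNA reads as the library size. The lymphoid, endothelial, and liver and serum lists had 2 tested members each, none of them called.

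**Figure D3:**
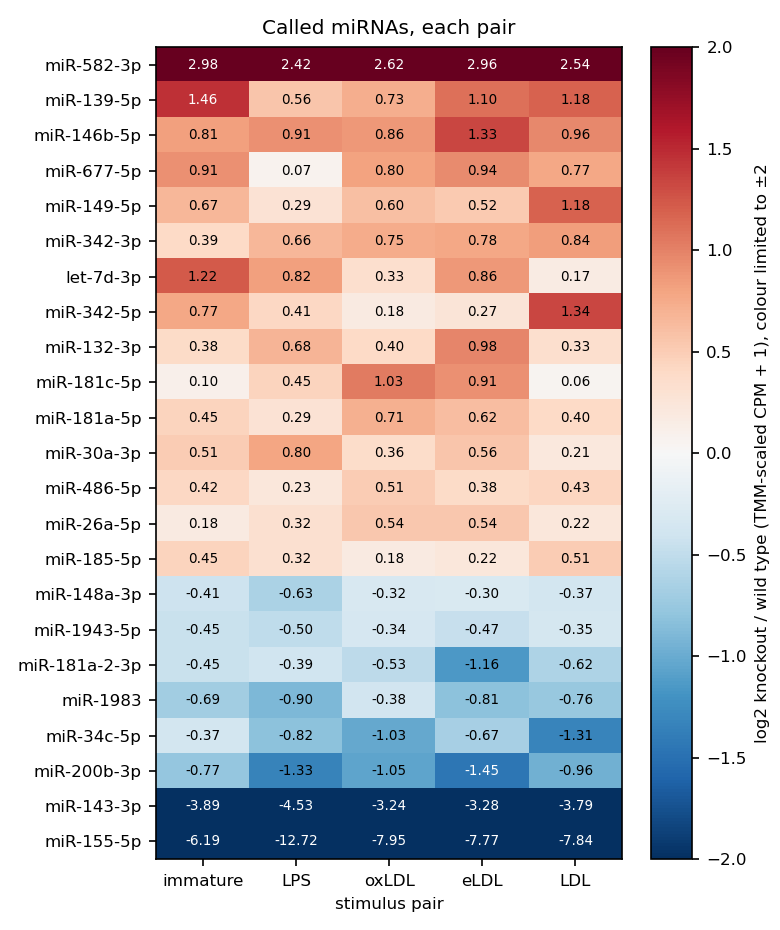
Log2 ratio of knockout to wild type in each of the 5 stimulus pairs (columns) for the 23 named miRNAs called in the fit over all pairs (rows), from CPM scaled by TMM with 1 CPM added; the colour scale is limited to 2 in either direction and each cell prints its value. Ratios of a row have the same sign in all 5 columns, which was a condition for being named, and those of miR-146b-5p run from 0.81 to 1.33.

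Of the 32 called miRNAs, 9 lay outside the rule for named miRNAs, 7 of them because their mean was below 10 CPM, and several have been given above. The remaining ones were miR-147-5p, miR-92b-3p and miR-5107-5p. miR-147-5p, from a hairpin in an exon of AA467197, stood at 1.56, 28.0, 2.82, 1.87 and 2.03 CPM in knockout cells, against 3.19, 43.8, 3.98, 2.76 and 4.59 CPM in wild-type cells (log2 change -0.67 ± 0.15, adjusted p = 0.00934), whereas its more abundant partner miR-147-3p was not called (-0.09 ± 0.22, adjusted p = 0.854). The call of miR-147-5p was kept when each pair was left out. It was lost on the dendritic cell libraries alone and in a fit without terms for the stimuli. The calls of miR-146b-3p, miR-149-5p, miR-181c-5p, miR-185-5p and miR-5107-5p were also lost on the dendritic cell libraries alone. miR-92b-3p was lower in 5 of 5 pairs (-1.28 ± 0.36, adjusted p = 0.0352), though not called when any pair but LPS was left out. miR-5107-5p had 0.0945 to 1.71 CPM in knockout libraries and no read in wild-type libraries, close to the floor of 0.283 to 0.592 CPM, so no fold is given.

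The lists of related miRNAs were read by their counts, against 5.31% called higher and 3.18% called lower over all tested miRNAs. Of 24 tested arms of inflammation-induced miRNAs, 2 rose (miR-146b-5p and miR-132-3p), 3 fell (both miR-155 arms and miR-147-5p) and 19 were not called. The median log2 change of this list was 0.10, against 0.05 over all tested miRNAs. Of 15 myeloid differentiation miRNAs, 2 rose (miR-181a-5p and miR-181b-5p) and 13 were not called, with a median of 0.09; miR-223-3p, a granulocyte and monocyte miRNA, had 2519.6 ± 706 CPM in knockout and 2926 ± 950.3 CPM in wild-type cells (SD, n = 5 each; -0.08 ± 0.08, adjusted p = 0.636). The miR-30 family had 2 arms of 11 called higher. Of 7 tested lipid handling miRNAs, 1 was called, miR-148a-3p.

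In 8 further lists no arm was called. They were the 9 let-7 arms (median log2 change 0.18), the 6 from the chromosome 17 cluster that encodes miR-99b, let-7e and miR-125a (-0.04), the 6 of the miR-99a/let-7c/miR-125b cluster (0.29), the 11 of the miR-23/27/24 clusters (0.14), the 16 of the miR-17-92 cluster and its paralogs (0.02), the 12 of miR-15, miR-16, miR-322 and miR-503 (0.05), the 3 of the cluster that encodes miR-96, miR-182 and miR-183 (-0.20) and the 7 of the miR-29 family (0.16). The 4 tested Hox cluster miRNAs, among them the abundant miR-10a-5p (0.04 ± 0.08, adjusted p = 0.831), were not called either.

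miRNAs on chromosome 16 were listed because the targeted locus lies there. Besides the miR-155 arms, 20 were tested and 1 was called, miR-185-5p, 66.4 Mb from Mir155, against 8.49% called over all tested miRNAs. The nearest were the 6 arms of the miR-99a/let-7c/miR-125b cluster, 7.07 to 7.12 Mb away. Each of the 6 had a positive log2 change (0.20 to 0.43) and none was called. Over all 377 tested miRNAs, 216 had a positive log2 change. let-7c-5p and miR-125b-5p are also encoded by hairpins on other chromosomes.

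LPS was the stimulus that moved the wild-type miR-155-5p most, so the genotype difference in the LPS pair was tested against that in the other 4 pairs. No miRNA was called (0% of 377), with 21 at an unadjusted p under 0.05. miR-147-3p, which LPS induces through Toll-like receptors, had 266 CPM in the knockout and 283 CPM in the wild-type LPS library, against 2.03 to 4.17 CPM in the other knockout and 2.32 to 5.88 CPM in the other wild-type libraries. The LPS libraries thus stood apart for miR-147-3p in both genotypes, and the term for the LPS pair was -0.02 ± 0.47 on the log2 scale (edgeR, adjusted p = 1). For miR-155-5p the term was -5.04 ± 1.30 (adjusted p = 0.287), with a high wild-type level there and knockout levels at 2 to 7 reads in each library. DESeq2 called this term for miR-155-5p (adjusted p = 0.0107), as did edgeR on the dendritic cell libraries alone (adjusted p = 8.56e-06).

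Both arms of miR-455 were rare. miR-455-5p had 8.88 CPM in the knockout LPS library and 0 in the other 4 knockout libraries, against 2.84 CPM in the wild-type LPS library and 0 to 1.29 CPM in the other wild-type libraries. miR-455-3p had 3.78 CPM in the knockout and 8.29 CPM in the wild-type LPS library, so the arms pointed in opposite directions there. Over the 5 pairs, their log2 changes were 0.31 ± 0.94 for the 5p arm and -0.46 ± 0.75 for the 3p arm, and neither was called (adjusted p = 0.911 and 0.791). Without a filter on low counts the LPS term of miR-455-5p was called (6.27 ± 1.06, adjusted p = 2.3e-05).

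The genotype effect in dendritic cells was set against that in macrophages with an interaction test in the same fit. The difference was called for 58 of 377 miRNAs (15.4%), 40 with the higher effect in dendritic cells (10.6%) and 18 with the lower effect (4.77%). With total miRNA reads as the library size, which moved the median difference to -0.17 on the log2 scale against 0.07, the split was 26 higher and 43 lower. Of the 32 miRNAs called in dendritic cells, 16 also differed from macrophages by this test. In macrophages 90 miRNAs were called (23.9%), and 16 were called in both cell types, which is 50% of the dendritic cell calls and 17.8% of the macrophage calls. Of these 16, 11 had the same sign and 5 the opposite sign.

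miR-582-3p had the clearest reversal. In macrophages it stood at 219.6, 198, 225, 213 and 198 CPM in knockout cells, against 334, 431, 542, 436 and 425 CPM in wild-type cells, listed by state as before with the unstimulated culture first. Wild-type dendritic cells, at 10.7 to 32.0 CPM, thus had the lowest levels of the 4 groups, and knockout dendritic cells overlapped with knockout macrophages. The log2 change was 2.76 ± 0.13 in dendritic cells and -1.15 ± 0.12 in macrophages, and the difference was 3.91 ± 0.17 (adjusted p = 1.02e-10). miR-34c-5p was the reverse case, lower in knockout dendritic cells (-0.87 ± 0.20) and higher in knockout macrophages (1.28 ± 0.20), with a difference of -2.15 ± 0.28 (adjusted p = 3.81e-05).

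miR-146b-5p, miR-342-3p and miR-139-5p rose in dendritic cells by more than in macrophages. In macrophages the log2 changes were -0.08 ± 0.09, -0.08 ± 0.08 and 0.32 ± 0.13, none of them called (adjusted p = 0.648, 0.623 and 0.105), and the differences between the cell types were 1.05 ± 0.13, 0.76 ± 0.12 and 0.72 ± 0.19 (adjusted p = 1.83e-05, 0.000212 and 0.0171). The difference for miR-139-5p kept its call in 9 of 13 other settings and was lost with total miRNA reads as the library size. For miR-146a-5p the order of the cell types was the other way. Its log2 changes were 0.03 ± 0.12 in dendritic cells and 0.64 ± 0.12 in macrophages (difference -0.61 ± 0.17, edgeR, adjusted p = 0.026). The miR-146a-5p difference lost its call without the LPS or the eLDL pair, and in a fit without terms for the stimuli. miR-200b-3p and miR-143-3p had like changes in both cell types, -1.13 ± 0.12 in dendritic cells and -1.08 ± 0.12 in macrophages for miR-200b-3p (difference -0.05 ± 0.17, adjusted p = 0.887), and -4.10 ± 0.91 in dendritic cells and -4.04 ± 0.99 in macrophages for miR-143-3p (difference -0.06 ± 1.29, adjusted p = 0.992). The wide error for miR-143-3p leaves room for a difference in either direction.

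Other miRNAs changed in macrophages and were not called in dendritic cells. let-7e-5p had a log2 change of 0.10 ± 0.13 in dendritic cells and -2.10 ± 0.14 in macrophages, and miR-99b-3p of the same cluster -0.01 ± 0.15 in dendritic cells and -2.52 ± 0.18 in macrophages. The 6 arms of that cluster, which also encodes miR-125a, were called lower in knockout macrophages, and none was called in knockout dendritic cells. The hypoxia-induced miR-210-3p showed the same contrast, with -0.05 ± 0.18 in dendritic cells and -3.02 ± 0.20 in macrophages (difference 2.97 ± 0.27, adjusted p = 2.36e-06). In the other direction, miR-181d-5p had 0.20 ± 0.14 in dendritic cells and 1.48 ± 0.12 in macrophages (difference -1.28 ± 0.18, adjusted p = 0.000129). The difference was also called for miR-99a-3p (adjusted p = 0.00957), but in macrophages it rested on 0, 9, 3, 6 and 0 reads in knockout and 0, 0, 0, 1 and 0 reads in wild-type libraries, so no size is given there. In dendritic cells, where it had 762 reads or more in each library, its log2 change was 0.43 ± 0.15 and was not called (adjusted p = 0.0928).

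**Figure D4:**
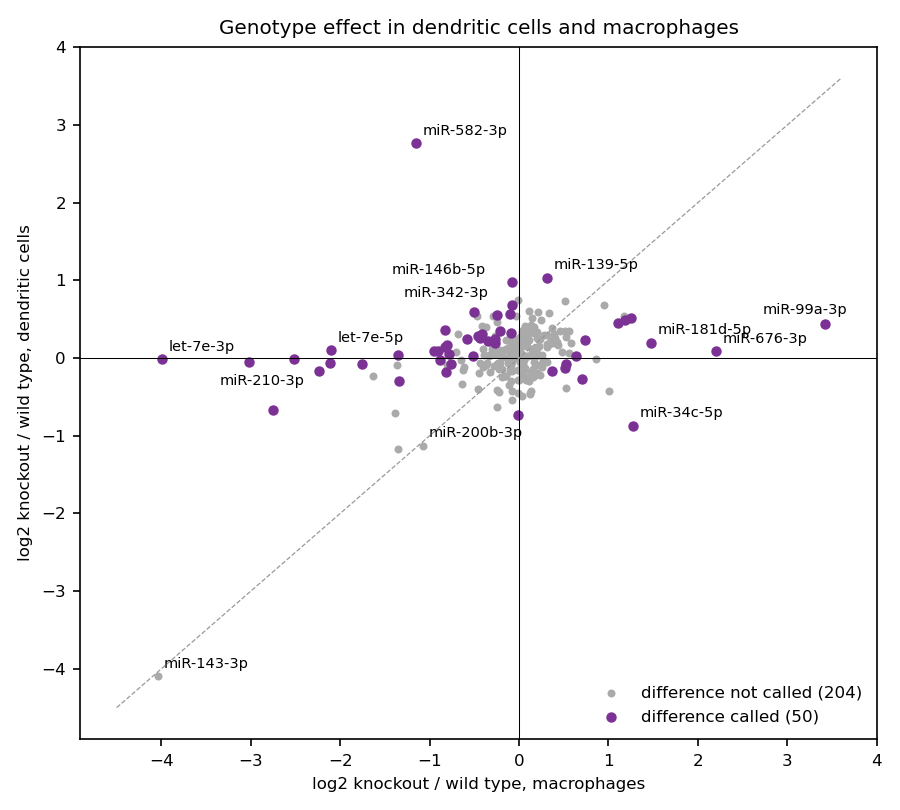
Fitted log2 ratio of knockout to wild type in dendritic cells (vertical axis) and in macrophages (horizontal axis) for miRNAs with a mean of at least 10 CPM in dendritic cells, without miR-155; the dashed line marks equal ratios. Purple points are miRNAs whose difference between the cell types was called (edgeR, adjusted p under 0.05), and miR-582-3p lies at 2.76 in dendritic cells and -1.15 in macrophages, far from the line. The macrophage positions of let-7e-3p and miR-99a-3p rest on few reads and are not measures of size.

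Because miR-146b-5p is far more abundant in macrophages, at 231724 to 267483 CPM, the miRNAs that mark the macrophage cultures were read in the dendritic cells. This list was drawn up after the values were seen: 14 miRNAs, without miR-155, with a level at least 8-fold higher in macrophages and a mean there of at least 50 CPM. Of these, 3 were called higher in knockout dendritic cells (miR-181c-5p, miR-149-5p and miR-146b-5p), 2 lower (miR-181c-3p and miR-147-5p) and 9 were not called, against 5.31% higher and 3.18% lower over all tested miRNAs. miR-146b-5p prompted the list, so its call is not a result of the list. miR-181c-3p, miR-187-3p and miR-9-3p passed the filter of 5 CPM in 2 libraries only through macrophages. In dendritic cells, miR-187-3p had 21 reads in knockout and 17 in wild-type libraries, and miR-9-3p had 0 and 5, so their lack of a call says little. The median log2 change of the 14 miRNAs, with these included, was -0.05, against 0.05 over all tested miRNAs. miR-9-5p had the largest gap, at 9.95 ± 3.21 CPM in knockout and 8.68 ± 6.00 CPM in wild-type dendritic cells (SD, n = 5 each), which is 0.0776% of its mean level in macrophages for the knockout and 0.0677% for the wild type. miR-146b-5p stood at 6.28% of the macrophage level in knockout and 3.45% in wild-type dendritic cells. miR-187-3p averaged 0.472 CPM in knockout and 0.483 CPM in wild-type dendritic cells, and miR-9-3p had 0 CPM in knockout and 0.165 CPM in wild-type dendritic cells.

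**Figure D5:**
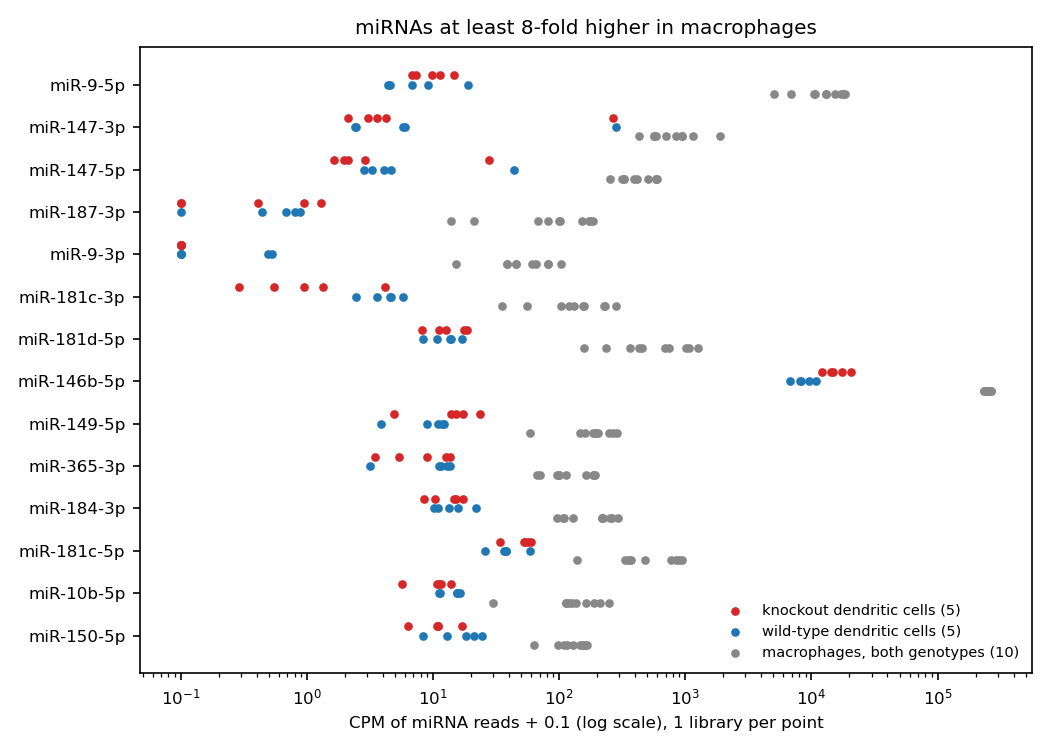
Levels of the 14 miRNAs that were at least 8-fold higher in macrophages, in CPM of miRNA reads with 0.1 added on a log axis, 1 point per library, with knockout dendritic cells (red) above wild-type dendritic cells (blue) and macrophages of both genotypes (grey) in each row. miR-9-5p lies near 10 CPM in both dendritic cell groups and above 5080 CPM in macrophages, and miR-146b-5p is the only row in which red and blue points do not overlap.

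A principal component analysis of the tested miRNAs in the 10 dendritic cell libraries, on log2 of TMM-scaled CPM + 1, placed 42.4% of the variance on the first component and 26.7% on the second. On the first component the wild-type LPS library stood at 16.8 and the knockout LPS library at 5.41, and the 4 other knockout libraries (-7.07 to -5.33) lay below the 4 other wild-type libraries (-0.97 to 1.66). On the second component the knockout libraries without LPS lay between 1.82 and 3.01 and the wild-type libraries without LPS between -6.21 and -5.36. The genotypes were thus apart on both components within the libraries without LPS, and the LPS libraries stood apart from their own genotype.

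The mean length of the miRNA reads was 22.1 to 22.2 nt in both genotypes. The knockout minus wild-type difference over the 5 pairs was -0.0139 nt (SD 0.0458), shorter in 4 pairs and longer in 1 (exact paired permutation test, two-sided, p = 0.5, the smallest possible being 0.0625).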

How the data were processed

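The authors deposited, per library, distinct small RNA sequences with the raw read count of each, from Trizol total RNA and TruSeq small RNA libraries per the labels' protocols. CASAVA 1.8.2 is named, with no role, in the submitters' processing notes, and the adapter trimmer was not stated. From these counts, tags of 18 to 26 nt were matched exactly to 1174 hairpins of GENCODE M21 (GRCm38), arms were set with RNAfold 2.7.2, starts had to lie within 2 nt of the main start, and shared tags were divided equally. edgeR 4.0.16 (R 4.3.3) with TMM scaling fitted all 20 libraries with a term for each cell type and genotype combination and for each stimulus in each cell type, leaving 8 residual degrees of freedom, with Benjamini-Hochberg adjustment. SE is the log2 change divided by the root of F. DESeq2 1.42.0 was an alternative. The fit was tested on simulated data. Each group holds 1 library, numbered 1, so replicate numbers pair nothing and stimuli form the pairs. The rule names miR-155, up to 15 called miRNAs each way with a mean of at least 10 CPM and the same direction in 5 pairs, list members, cluster neighbours within 10 kb and the 10 most abundant. Members and lists were chosen with earlier results of these data known.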

Additional observations from a re-analysis of the deposited data

Results flagged for a closer look

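The genotype effect differed between dendritic cells and macrophages, by edgeR's interaction test at an adjusted p under 0.05, for 19 miRNAs named here. Given as the log2 effect in dendritic cells minus that in macrophages, the positive differences were let-7e-3p 3.98, miR-582-3p 3.91, miR-210-3p 2.97, miR-99b-3p 2.51, miR-210-5p 2.08, let-7e-5p 2.21, miR-342-5p 1.10, miR-146b-5p 1.05, miR-342-3p 0.76, miR-139-5p 0.72 and miR-132-3p 0.67. The negative differences were miR-99a-3p -2.99, miR-34c-5p -2.15, miR-676-3p -2.12, miR-181d-5p -1.28, miR-151-5p -0.98, miR-181c-5p -0.73, miR-1983 -0.72 and miR-30a-3p -0.70. For miR-582-3p the effect was 2.76 in dendritic cells and -1.15 in macrophages, and for miR-34c-5p it was -0.87 in dendritic cells and 1.28 in macrophages, so that the direction turned. The fitted differences of let-7e-3p and miR-99a-3p are not measures of size. In macrophages let-7e-3p had 5, 0, 0, 0 and 0 reads in knockout and 15, 13, 26, 0 and 27 in wild-type libraries, and miR-99a-3p had 0, 9, 3, 6 and 0 reads in knockout and 0, 0, 0, 1 and 0 in wild-type libraries (unstimulated, LPS, oxLDL, eLDL and LDL). Not every difference was stable. In the other settings, miR-132-3p kept its call in 5 of 13, miR-1983 in 6 of 12, miR-139-5p in 9 of 13 and miR-181c-5p in 10 of 13. miR-210-5p, miR-342-5p, miR-99a-3p, miR-181d-5p and miR-30a-3p lost theirs only in the fit without terms for the stimuli. Over the scalings tried, the median difference of all tested miRNAs lay between -0.22 and 0.07. Each group holds 1 library, so libraries were not searched for outlying values.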

How the results depend on the processing

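The libraries were paired by stimulus, which was the block of the fit; the replicate number, 1 in each group, gives no further pairing. The count of miRNAs called for genotype in dendritic cells (32) moved to 49 with DESeq2 and to 14 without the stimulus block, and ran from 16 to 32 when each pair was left out; the cause was not tested. The other settings gave 29 to 43 calls, but 2 of them tested other numbers of miRNAs than 377. At 50 CPM or more, 43 of 193 were called, and without the filter 35 of 1046. Higher against lower calls were 20 and 12 with TMM, 11 and 21 with total miRNA reads, 17 and 12 with upper-quartile scaling, 18 and 16 on dendritic cells alone, 11 and 18 without shared sequences, and 7 and 36 at 50 CPM or more, where the median moved to -0.11. In every setting in which they could be tested, 10 were called: miR-139-5p, miR-146b-5p, miR-148a-3p, miR-155-5p, miR-181a-5p, miR-1983, miR-200b-3p, miR-342-3p, miR-582-3p and miR-582-5p. Differences between the cell types (58) moved to 21 without the block and ran from 47 to 53 without each pair; the split was 40 and 18 with TMM, 26 and 43 with total reads and 22 and 49 with upper-quartile scaling, and 18 were called in every setting. For the LPS pair, 1 was called with DESeq2 and on dendritic cells alone (miR-155-5p) and 1 without the filter (miR-455-5p), and 0 without each other pair. The length difference turned to 0.0097 nt without miR-21a-5p and ran from -0.0321 to -0.0008 nt without each pair. Of 188 single miRNAs under 14 settings, 2389 values kept their call with its direction or stayed uncalled. Changes of sign among values that stayed uncalled were not counted. A further 121 values lost the call and 59 gained it. Among values with a call in either fit, 1 changed sign, that of miR-25-3p at -0.18 (edgeR, adjusted p = 0.0413) with the 50 CPM filter. A count of 0 allows up to 3 counts, so levels up to about 0.283 to 0.592 CPM could have gone unseen.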
